A study of Mus musculus with 32 samples.

Results

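Regulatory T cells (Tregs) activated for 36 h with an agonist of TNFR2 were compared directly with Tregs activated for the same time with an agonist of 4-1BB. The comparison took the 3 libraries titled as TNFR2 agonist at 36 h and the 3 titled as 4-1BB agonist at 36 h, which make 6 of the 32 libraries in the series, and covered all genes. The cells were Foxp3/GFP+ Tregs purified from C57BL/6 mice carrying a Foxp3-IRES-GFP knock-in, in which cells that express Foxp3, the lineage-defining transcription factor of Tregs, also make a fluorescent protein. The mice were 2.5 months old. In every group compared here the culture held 10 ng/ml mouse IL-2 and plate-bound anti-CD3 and anti-CD28. TNFR2 was engaged by TNC-sc(mu)TNF80 (STAR2), a fusion protein built from mouse TNF, at 12 ng/ml, and 4-1BB by the antibody 3H3 at 10 µg/ml. Control cells in the same culture without agonist formed 3 further libraries at 36 h, and 3 libraries for each agonist at 18 h gave an earlier time. The doses were not matched and one agonist is a ligand fusion while the other is an antibody, so receptor, dose and kind of agonist cannot be told apart in any difference below. The spread between replicates was estimated over all 32 libraries in 11 groups. These include resting Tregs and Tregs given DR3 or OX40 agonists, which are not compared here. The labels do not say whether the replicates came from separate mice or cultures, so the p-values measure the spread between replicate libraries of the series, which may be technical.

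TNFR2 (gene Tnfrsf1b) and 4-1BB (gene Tnfrsf9) are both members of the TNF receptor superfamily that lack a death domain. They bind adaptor proteins of the TRAF family and activate the canonical and non-canonical NF-kB pathways, in which inhibitors such as A20 (gene Tnfaip3) act as negative feedback. On Tregs, where both receptors are highly expressed after activation, they act as costimulatory receptors that promote proliferation and survival.

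The 6 libraries held between 18186226 and 21641428 expected counts. Levels below are CPM, counts relative to the TMM-scaled library total, and a fold change is the TNFR2 agonist level over the 4-1BB agonist level, given as log2 ± standard error. Foxp3 averaged 370.0 ± 13.7 CPM with the TNFR2 agonist and 372 ± 14.6 CPM with the 4-1BB agonist (SD, n = 3 each), and the summed level of 8 Treg markers was 5071 to 5285 CPM with the TNFR2 agonist and 5027 to 5073 CPM with the 4-1BB agonist. Of the 8 markers, Cd3e and Tnfrsf18 were higher with the TNFR2 agonist and none was lower. By edgeR's test no conventional helper T cell, B cell, myeloid or erythroid marker was called between the agonists. At an unadjusted p below 0.05 there was 1 lower helper T cell gene of 8, 1 higher B cell marker of 10 and 0 in the other lists; limma voom called 1 helper T cell gene and DESeq2 0. The markers of other lymphocytes (CD8 T, gamma-delta T and NK cells) summed to 80.8 to 82.7 CPM with the TNFR2 agonist and 68.9 to 74.5 CPM with the 4-1BB agonist, with the T-box factor gene Eomes (0.42 ± 0.07) called higher of 7 tested and the NK gene Klrb1c at 0 counts in all 6 libraries. The myeloid genes Fcgr1, Siglech, S100a8, S100a9 and Clec9a had 0 counts in all 6 libraries. Summed myeloid and dendritic markers reached at most 3.83 CPM with the TNFR2 agonist and 3.92 CPM with the 4-1BB agonist. The 10 B cell markers summed to no less than 280.3 CPM with the TNFR2 agonist and 288 CPM with the 4-1BB agonist, nearly all of it from the immunoglobulin heavy chain gene Ighm. One ribosomal-locus transcript, RP23-81C12.3, took 15380, 2760 and 4022 CPM with the TNFR2 agonist against 2780, 1985 and 2245 CPM with the 4-1BB agonist, so TNFR2 agonist replicate 1 stood apart in that transcript. Mitochondrially encoded genes took 1.75% to 1.93% of counts with the TNFR2 agonist and 2.08% to 2.35% with the 4-1BB agonist. None of the 11 such genes tested passed edgeR's threshold, nor did any in DESeq2 or limma voom, and 1 was lower at an unadjusted p below 0.05. The part of the mitochondrial share and of the markers of other lymphocytes in the gene differences was not tested. In RNA from a whole culture, a lower level of a transcript can come from fewer cells that make it or from less RNA per cell, which cannot be told apart.

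The 2 agonists left the Tregs with closely similar transcriptomes that differed by many small steps. Of 14313 genes tested, 530 (3.7%) differed at an adjusted p below 0.05 in edgeR's quasi-likelihood test with Benjamini-Hochberg adjustment, the rule meant below by "called". Among them 324 (2.26%) were higher and 206 (1.44%) were lower with the TNFR2 agonist. The median size of the log2 fold change was 0.217 among called genes and 0.0868 among all genes tested, and 483 of the 530 were under 1.5-fold. For 520 of the 530 the 3 values of one group lay wholly above the 3 of the other, which held for 3367 (23.5%) of all genes tested. The count of 530 fell to 296 without TNFR2 agonist replicate 1, 231 without TNFR2 agonist replicate 2, 318 without 4-1BB agonist replicate 1, 324 without 4-1BB agonist replicate 2 and 285 without 4-1BB agonist replicate 3. With the ribosomal-locus transcript as a covariate 370 genes were called, 362 of them among the 530. The main axis of a principal component analysis of the 6 libraries, with 29.5% of the variance, placed the TNFR2 agonist libraries at -24.0, -10.4 and -9.67 and the 4-1BB agonist libraries at 21.5, 8.70 and 13.9.

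**Figure D1:**
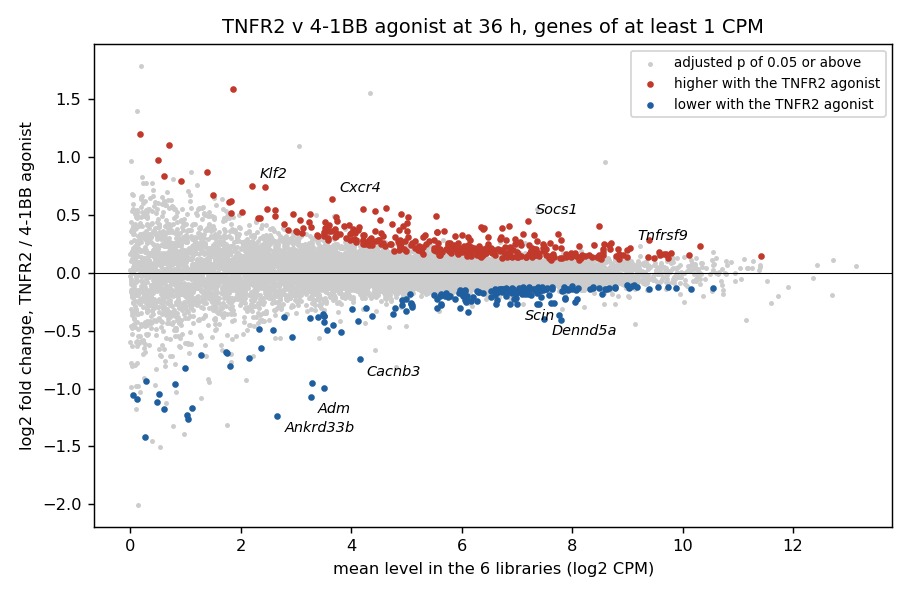
Each point is 1 of the 11486 tested genes with a mean of at least 1 CPM, by its mean level in the 6 libraries (x axis, log2 CPM) and its log2 fold change of TNFR2 agonist over 4-1BB agonist at 36 h (y axis). Called genes are coloured by direction, and 11 called genes below that level are not drawn. Most coloured points lie close to 0, and the genes lower with the TNFR2 agonist, such as Ankrd33b, Adm and Cacnb3, reach further from it than the higher ones at like levels.

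Only 25 genes were both called and at least 2-fold apart, 4 of them higher (0.0279%) and 21 lower (0.147%) with the TNFR2 agonist. Of these 25, 20 carried clone names in place of gene symbols, and Ankrd33b and Adm alone had a gene symbol and a mean of at least 5 CPM in their higher group. The count of 25 was 16 without TNFR2 agonist replicate 1, 14 without TNFR2 agonist replicate 2, 11 without 4-1BB agonist replicate 1 and 15 with the ribosomal-locus transcript as a covariate. The lead genes below were the 15 largest and 15 smallest fold changes among called genes whose replicates did not overlap and whose higher group averaged 5 CPM or more.

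The genes furthest below the 4-1BB agonist level were, with few exceptions, genes that stood lower again in cells without agonist. Ankrd33b (chr15:31291478-31367726 on GRCm38, the build of the positions here) read 3.72, 3.40 and 4.21 CPM with the TNFR2 agonist, against 7.57, 9.98 and 9.15 CPM with the 4-1BB agonist and 0.510, 0.627 and 0.863 CPM in control cells. The 3 groups did not overlap, and the TNFR2 agonist group lay between the others. Its log2 fold change was -1.24 ± 0.15 (adjusted p = 2.85e-07). Adm (chr7:110627661-110629820), which encodes the vasoactive peptide adrenomedullin, read 5.75, 5.83 and 7.06 CPM with the TNFR2 agonist, 14.2, 13.3 and 11.8 CPM with the 4-1BB agonist and 3.25, 2.87 and 2.88 CPM in control cells. Here too the TNFR2 agonist values were intermediate and apart from both other groups, with a log2 fold change of -1.07 ± 0.11 (adjusted p = 8.33e-10). Idi2 (chr13:8952863-8960945), an isopentenyl diphosphate isomerase of isoprenoid synthesis, followed with 8.004, 8.04 and 6.75 CPM with the TNFR2 agonist against 15.6, 15.4 and 14.3 CPM with the 4-1BB agonist. Its fold change on the log2 scale was -0.99 ± 0.10 (adjusted p = 8.33e-10), and controls had 4.27, 4.66 and 5.01 CPM.

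Csf2 (chr11:54247271-54249667), the gene of the myeloid growth factor GM-CSF, had 6.48, 7.37 and 6.18 CPM with the TNFR2 agonist, 13.0, 12.2 and 13.7 CPM with the 4-1BB agonist and 2.13, 2.46 and 2.59 CPM without agonist. All 3 TNFR2 agonist libraries sat well above the controls and well below the 4-1BB agonist libraries (log2 fold change -0.96 ± 0.11, adjusted p = 4.05e-08). Cacnb3 (chr15:98630840-98644529), which encodes a beta subunit of voltage-gated calcium channels, had 12.9, 14.3 and 12.7 CPM with the TNFR2 agonist, 20.7, 24.3 and 21.9 CPM with the 4-1BB agonist and 5.15, 4.48 and 4.40 CPM without agonist, a log2 fold change of -0.75 ± 0.07 between the agonists (adjusted p = 1.08e-09). Among more abundant transcripts, Dennd5a (chr7:109893780-109960470), a regulator of Rab GTPases in vesicle traffic, had the smallest p of this group. It stood at 156, 153 and 158 CPM with the TNFR2 agonist and 207, 206 and 203 CPM with the 4-1BB agonist, with 91.7, 88.7 and 88.7 CPM in controls (log2 fold change -0.40 ± 0.04, adjusted p = 1.74e-10). The replicates of each group were tight and the 3 groups were fully separate. Wnt3, a secreted Wnt ligand, was lower with the TNFR2 agonist by 0.51 on the log2 scale, the activin subunit gene Inhba by 0.74, Cdk5r1, the activator of the kinase CDK5, by 0.42 and the large scaffold protein gene Ahnak by 0.41. Ahnak lost its call without TNFR2 agonist replicate 2, Cdk5r1 without TNFR2 agonist replicate 1, and Inhba without TNFR2 agonist replicate 1 or 2 or without 4-1BB agonist replicate 2. The others of the 15 were Sowahc (-0.50), the Src-family kinase gene Yes1 (-0.49), the kinase gene Dclk1 (-0.45), the surface glycoprotein gene Cd24a (-0.41) and Tnfsf9, described with its family. Yes1 lost its call without TNFR2 agonist replicate 1 or 4-1BB agonist replicate 2, and Dclk1 without any 1 of TNFR2 agonist replicates 1 and 2 and 4-1BB agonist replicates 1 and 2. Across all 15, the control mean lay below both agonist means in 13 and above both in 0. The corresponding count over the 206 genes called lower was 102 below both, 86 between the agonist means and 18 above both.

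**Figure D2:**
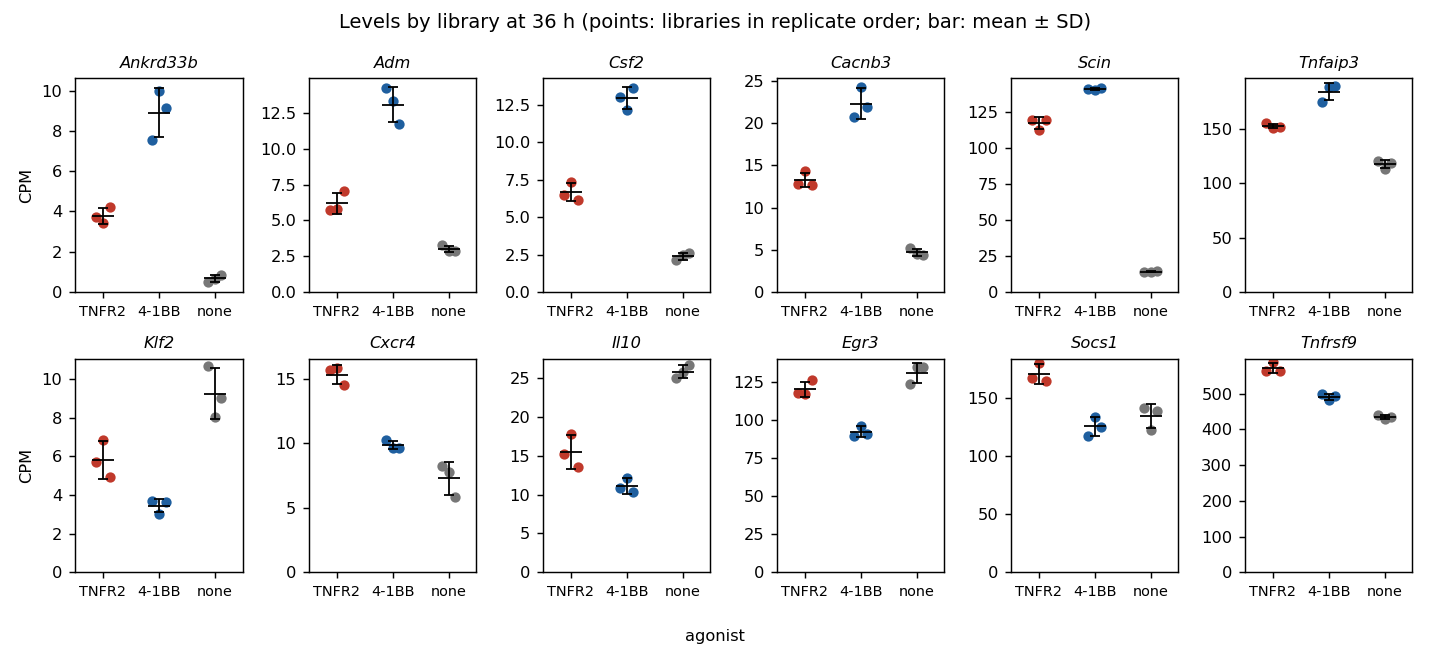
Levels in CPM (y axes, each from 0) of 12 genes in every 36 h library with the TNFR2 agonist, the 4-1BB agonist or no agonist; points are libraries and bars are mean ± SD of 3. Ankrd33b, Adm, Csf2, Cacnb3, Scin and Tnfaip3 (top row) are highest with the 4-1BB agonist and lowest without agonist. In the bottom row the TNFR2 agonist group lies above the 4-1BB agonist group. The control mean there lies above both, below both or, for Socs1, between them.

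The genes most above the 4-1BB agonist level included homing receptors and genes of quiescent or effector T cells, and 5 of the 15 were higher still without agonist. Klf2 (chr8:72319033-72321656), a transcription factor that keeps T cells quiescent and drives their recirculation, read 5.69, 6.86 and 4.93 CPM with the TNFR2 agonist, 3.68, 3.05 and 3.64 CPM with the 4-1BB agonist and 10.7, 8.07 and 9.04 CPM without agonist. Both agonist groups lay below the control, the 4-1BB agonist group further (log2 fold change between agonists 0.75 ± 0.17, adjusted p = 0.0103). The Klf2 call was lost without TNFR2 agonist replicate 2 and without 4-1BB agonist replicate 2. Cxcr4 (chr1:128588199-128592293), the receptor of the chemokine CXCL12, showed another order, with 15.7, 15.8 and 14.5 CPM with the TNFR2 agonist, 10.2, 9.68 and 9.66 CPM with the 4-1BB agonist and 8.26, 7.80 and 5.83 CPM in controls. It was highest in every TNFR2 agonist library, with a log2 fold change of 0.64 ± 0.08 (adjusted p = 9.4e-07). Wnt10b (chr15:98770712-98778150), a Wnt ligand like Wnt3 above, moved the opposite way to it, at 25.6, 25.0 and 25.8 CPM with the TNFR2 agonist, 18.5, 17.6 and 16.6 CPM with the 4-1BB agonist and 10.6, 9.50 and 9.73 CPM in controls (log2 fold change 0.54 ± 0.06, adjusted p = 7.99e-08).

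Il10 (chr1:131019845-131024974), which encodes the suppressive cytokine IL-10, had 15.2, 17.8 and 13.5 CPM with the TNFR2 agonist, 10.8, 12.2 and 10.3 CPM with the 4-1BB agonist and 25.0, 25.8 and 26.6 CPM without agonist. The TNFR2 agonist libraries thus kept more Il10 RNA than the 4-1BB agonist libraries while both lay below control (log2 fold change 0.48 ± 0.11, adjusted p = 0.00482); the call was lost without TNFR2 agonist replicate 2 (0.37 on the log2 scale, adjusted p = 0.0915). Ccl4, an inflammatory chemokine gene, read 52.3, 57.5 and 52.3 CPM with the TNFR2 agonist, 40.3, 35.6 and 39.6 CPM with the 4-1BB agonist and 61.1, 58.2 and 71.6 CPM without agonist, while Cxcr6, the receptor of CXCL16, read 12.1, 12.1 and 9.71 CPM with the TNFR2 agonist, 8.73, 8.29 and 6.77 CPM with the 4-1BB agonist and 20.1, 18.6 and 20.2 CPM without agonist. In both genes the TNFR2 agonist values exceeded every 4-1BB agonist value, by 0.49 ± 0.08 and 0.51 ± 0.11 on the log2 scale (adjusted p = 0.000144 and 0.00207). Further large differences were those of the bZIP transcription factor gene Cebpb (0.55 ± 0.09), the axon guidance ligand gene Ntn1 (0.55 ± 0.12), the prostacyclin receptor gene Ptgir (0.50 ± 0.12) and the fatty acid desaturase gene Scd1 (0.48 ± 0.08). The interferon-inducible gene Ifi203 was higher by 0.51 ± 0.11, in a gene family with near-identical copies whose reads the counting could share out differently. Ntn1 lost its call without 4-1BB agonist replicate 1, and Ptgir without TNFR2 agonist replicate 1 or 4-1BB agonist replicate 3. The others of the 15 were Isoc2b (0.74 ± 0.14), Scand1 (0.56 ± 0.11), Sh3bp4 (0.49 ± 0.13) and Zfp467 (0.47 ± 0.12), of which Sh3bp4 lost its call without any 1 of TNFR2 agonist replicates 2 and 3 and 4-1BB agonist replicates 2 and 3, and Zfp467 without any 1 of TNFR2 agonist replicates 1 and 2 and 4-1BB agonist replicates 1 and 3. Of these 15 genes, the control mean lay below both agonist means in 4 and above both in 5, and of all 324 genes called higher it lay below both in 98, between them in 132 and above both in 94.

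Each agonist set against the 3 shared control libraries gave more calls than the agonists set against each other. With the TNFR2 agonist 3551 genes (24.8%) were called against control at 36 h, 1854 (13%) higher and 1697 (11.9%) lower, and with the 4-1BB agonist 3215 (22.5%) were called, 1566 (10.9%) higher and 1649 (11.5%) lower. Because the controls are shared, no overlap of those lists is given. Side by side, Scin, the gene of the actin-severing protein scinderin, was above control by 3.05 with the TNFR2 agonist and by 3.32 with the 4-1BB agonist on the log2 scale. Nfkb2 was above control by 0.90 with the TNFR2 agonist and 0.93 with the 4-1BB agonist, and Csf2 by 1.47 with the TNFR2 agonist and 2.43 with the 4-1BB agonist.

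The called differences in the receptors themselves and the rest of their superfamily were small in size. Tnfrsf9, the gene of 4-1BB, read 562, 589 and 563 CPM with the TNFR2 agonist against 499, 483 and 493 CPM with the 4-1BB agonist and 439, 429 and 433 CPM in controls. It was therefore lowest without agonist and highest in each TNFR2 agonist library (log2 fold change 0.22 ± 0.04, adjusted p = 8.21e-05). Tnfrsf1b, the gene of TNFR2, averaged 253 ± 6.70 CPM with the TNFR2 agonist and 236 ± 4.89 CPM with the 4-1BB agonist (SD, n = 3 each), a difference of 0.10 ± 0.04 that did not pass the test (adjusted p = 0.0925). Per length, in TPM, Tnfrsf4 was the most abundant of the 4 receptors whose agonists the series tested, at 1044 TPM with the TNFR2 agonist and 966 TPM with the 4-1BB agonist. Tnfrsf9 stood at 587 TPM with the TNFR2 agonist and 506 TPM with the 4-1BB agonist, Tnfrsf1b at 112 TPM with the TNFR2 agonist and 108 TPM with the 4-1BB agonist, and Tnfrsf25, the gene of DR3, at 24.1 TPM with the TNFR2 agonist and 24.03 TPM with the 4-1BB agonist. Of 23 superfamily receptors tested, 4 were called (17.4%, against 3.7% over all genes tested), all higher with the TNFR2 agonist. They were Tnfrsf9, Tnfrsf18 (GITR, 0.15 ± 0.04), Tnfrsf4 (OX40, 0.14 ± 0.04) and Cd27 (0.19 ± 0.05). Without TNFR2 agonist replicate 2 only 1 of the 23 was called, and without 4-1BB agonist replicate 1 or 2 only 2 were.

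Among the ligands of the superfamily, 4 of the 14 tested were higher and 1 was lower with the TNFR2 agonist (35.7%, against 3.7% over all genes tested). The list held 3 calls, all higher, without TNFR2 agonist replicate 2 or without 4-1BB agonist replicate 1 or 3. Ltb, which encodes the membrane anchor of lymphotoxin heterotrimers, read 238, 253 and 224 CPM with the TNFR2 agonist and 193, 188 and 187 CPM with the 4-1BB agonist (0.33 ± 0.05, adjusted p = 6.8e-05). Tnfsf10, the gene of the death ligand TRAIL, read 93.1, 92.2 and 94.3 CPM with the TNFR2 agonist, 74.0, 70.5 and 68.6 CPM with the 4-1BB agonist and 98.3, 108 and 98.0 CPM in controls. The TRAIL transcript in 4-1BB agonist libraries thus lay below both other groups (log2 fold change 0.39 ± 0.06, adjusted p = 1.34e-05). Tnfsf11 (RANKL) was higher by 0.18 ± 0.04. Tnfsf9, the ligand of 4-1BB, was the member that was lower, at 4.57, 3.71 and 4.36 CPM with the TNFR2 agonist and 6.31, 5.39 and 5.97 CPM with the 4-1BB agonist (-0.49 ± 0.13, adjusted p = 0.0223), a call lost without TNFR2 agonist replicate 2 and without 4-1BB agonist replicate 1 or 3. The remaining call, Tnfsf4 (OX40L), was higher by 0.32 ± 0.10 (adjusted p = 0.0481) and was lost in 9 of the alternatives tried, among them leaving out TNFR2 agonist replicate 1 or 2 or 4-1BB agonist replicate 1 or 3. Tnf (0.10 ± 0.04, adjusted p = 0.245) and Lta (-0.04 ± 0.03, adjusted p = 0.617) did not pass.

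Most genes of the NF-kB pathway list did not pass the test, though the share called was above the 3.7% over all genes tested. Of 28 subunits, inhibitors and feedback genes tested, 1 was called higher and 3 lower (14.3%, median log2 fold change -0.0293 against 1.29e-05 over all genes). Tnfaip3, whose product A20 removes ubiquitin chains from signalling proteins, read 155, 151 and 152 CPM with the TNFR2 agonist, 175, 189 and 189 CPM with the 4-1BB agonist and 120.2, 113 and 119 CPM in controls. The groups did not overlap, and the log2 fold change was -0.27 ± 0.04 (adjusted p = 1.69e-05). Nfkbib, the gene of the inhibitor IkB-beta, was lower by 0.17, and Traf1, an adaptor that both receptors recruit, was lower by 0.11 at an adjusted p of 0.0442. Without any 1 of the 6 libraries the Traf1 call was lost, and the Nfkbib call was lost without TNFR2 agonist replicate 1 or 3 or 4-1BB agonist replicate 1 or 2. Bcl3, an atypical IkB protein that binds p50 and p52, was higher by 0.19 ± 0.05, and that call was lost without TNFR2 agonist replicate 1 or 2 and without 4-1BB agonist replicate 1 or 3. The list's lower count was thus 3 with all libraries and 1 to 2 with a library left out. Nfkb2, the gene of the p100 precursor of the non-canonical pathway, read 625, 626 and 617 CPM with the TNFR2 agonist and 611, 664 and 637 CPM with the 4-1BB agonist, and these overlapped (-0.03 ± 0.03, adjusted p = 0.682).

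Of 33 genes listed as NF-kB targets (2 of them, Relb and Nfkbiz, are in both lists), 4 were higher (Cd74, Irf8, Tap1 and Tapbp) and 4 lower (Ebi3, Zbtb46, Scin and Cacnb3) with the TNFR2 agonist, a share of 24.2% against 3.7% over all genes tested. The list was chosen with earlier results of these data known. It holds Scin, Cacnb3 and Zbtb46, genes induced by agonists in this series, so the share is not an independent result on NF-kB targets. All 4 higher genes and Zbtb46 are also in the antigen presentation list below and are counted there again. Scin, the member furthest above control, read 119, 112 and 119.6 CPM with the TNFR2 agonist, 141, 140.0 and 142 CPM with the 4-1BB agonist and 14.01, 13.6 and 14.7 CPM without agonist (-0.27 ± 0.05 between the agonists, adjusted p = 0.000378). Its 2 agonist groups were far from control and narrowly but fully separate from each other. Ebi3, which encodes a shared subunit of the cytokines IL-27 and IL-35, read 31.8, 30.1 and 30.7 CPM with the TNFR2 agonist, 38.1, 36.8 and 39.1 CPM with the 4-1BB agonist and 20.9, 16.1 and 20.0 CPM in controls (-0.30 ± 0.07, adjusted p = 0.00491). With each library left out in turn the counts stayed at 4 and 4, but with offsets for the GC content and length of transcripts they were 6 higher and 7 lower.

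The largest share of calls in any list tested was that of T cell activation and immediate early genes, of which 14 of 30 (46.7%) were called, all higher with the TNFR2 agonist. Over all genes tested 3.7% were called and 2.26% were higher. The median log2 fold change of the 30 was 0.162, against 1.29e-05 over all genes tested. The list held 9 calls without 4-1BB agonist replicate 1 and 10 without TNFR2 agonist replicate 2. Egr3 (chr14:70077203-70082614), a zinc finger transcription factor induced by antigen receptor signalling, read 118, 118 and 126 CPM with the TNFR2 agonist, 89.8, 96.6 and 90.9 CPM with the 4-1BB agonist and 124, 135 and 135 CPM in controls. The 4-1BB agonist group was the one that lay apart, below both others (0.38 ± 0.04, adjusted p = 3.71e-08). Its relatives Egr1 and Egr2 were higher by 0.25 ± 0.04 and 0.23 ± 0.04, and for Egr2 the values were 75.5, 74.2 and 77.3 CPM with the TNFR2 agonist, 62.0, 65.5 and 65.7 CPM with the 4-1BB agonist and 83.9, 83.1 and 84.1 CPM in controls. Nr4a1, the gene of the orphan nuclear receptor Nur77 and a readout of antigen receptor signal strength, took another order, with 361, 377 and 359 CPM with the TNFR2 agonist, 296, 318 and 312 CPM with the 4-1BB agonist and 285, 276 and 299 CPM in controls (0.24 ± 0.04, adjusted p = 2.49e-05). The AP-1 subunit genes Jun (0.20 ± 0.05), Junb (0.28 ± 0.05), Jund (0.41 ± 0.09) and Fosb (0.67 ± 0.16) were all higher, as were the dual-specificity phosphatase genes Dusp2 (0.25 ± 0.04) and Dusp5 (0.21 ± 0.04), Ier2 (0.23 ± 0.05) and Nr4a3 (0.16 ± 0.04). Leaving out TNFR2 agonist replicate 2 or 4-1BB agonist replicate 1 ended the calls of Jun, Jund and Fosb. Nr4a3 was lost without TNFR2 agonist replicate 3 or 4-1BB agonist replicate 1, and Jund also without 4-1BB agonist replicate 3. The 2 remaining calls were Tnfrsf9, given above, and Myc (0.12 ± 0.03, adjusted p = 0.0276), which was lost without each library except 4-1BB agonist replicate 2.

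Promoter windows of 4 called genes are shown as examples of the sequence at the start of NF-kB feedback and target genes that were lower (Tnfaip3, Ebi3) and of immediate early genes that were higher (Egr2, Dusp5) with the TNFR2 agonist. Each window runs from 250 bases before to 50 bases after a transcript start, from RefSeq on GRCm38.p6, 5′ to 3′ on the gene's strand. Capitals mark matches on either strand to the NF-kB motif GGGNNTTNCC and to the CArG box, the binding motif of the serum response factor. In Dusp5 the NF-kB match overlaps the first CArG match, and the second CArG match follows directly, so the capitals form 1 run. Tnfaip3 lies at chr10:19015361-19015660 on the minus strand, and on the plus strand Ebi3 lies at chr17:55952373-55952672, Egr2 at chr10:67537316-67537615 and Dusp5 at chr19:53528895-53529194. The Egr2 window is the first with a match among 5 for that gene, 4 of which hold a match, and 1 of the 2 Tnfaip3 windows holds one.
Tnfaip3: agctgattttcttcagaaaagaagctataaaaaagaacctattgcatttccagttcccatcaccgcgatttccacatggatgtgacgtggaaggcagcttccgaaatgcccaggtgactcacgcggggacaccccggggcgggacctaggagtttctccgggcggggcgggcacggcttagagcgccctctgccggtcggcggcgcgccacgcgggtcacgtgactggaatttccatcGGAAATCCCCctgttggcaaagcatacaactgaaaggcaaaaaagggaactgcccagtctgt
Ebi3: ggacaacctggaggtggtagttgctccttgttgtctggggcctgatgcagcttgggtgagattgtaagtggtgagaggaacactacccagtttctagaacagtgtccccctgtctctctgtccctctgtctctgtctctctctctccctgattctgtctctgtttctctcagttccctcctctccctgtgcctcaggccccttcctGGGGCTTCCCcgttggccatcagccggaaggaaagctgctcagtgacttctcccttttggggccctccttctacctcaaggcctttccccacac
Egr2: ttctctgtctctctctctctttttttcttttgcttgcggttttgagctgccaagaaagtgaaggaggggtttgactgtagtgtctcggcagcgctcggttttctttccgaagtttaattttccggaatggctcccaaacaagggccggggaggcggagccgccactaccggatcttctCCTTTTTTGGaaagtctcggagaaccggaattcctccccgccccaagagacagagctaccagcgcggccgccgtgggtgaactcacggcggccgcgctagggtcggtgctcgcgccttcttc
Dusp5: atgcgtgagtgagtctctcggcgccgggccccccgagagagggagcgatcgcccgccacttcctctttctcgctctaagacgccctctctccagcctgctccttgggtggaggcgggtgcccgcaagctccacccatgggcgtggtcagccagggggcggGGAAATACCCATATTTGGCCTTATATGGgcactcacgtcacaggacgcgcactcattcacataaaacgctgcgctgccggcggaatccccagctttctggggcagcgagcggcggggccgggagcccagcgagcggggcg
These 4 were picked because they hold a match. Over all 32851 RefSeq windows of that length, 4.79% held the NF-kB motif and 1.63% a CArG box. For each of the 9156 tested genes that had a window, only the first listed window was searched, and 5.53% held the NF-kB motif. The shares were 6.84% of 234 called higher and 5.33% of 150 called lower with the TNFR2 agonist. The 4 windows shown were instead taken from any window of the gene with a match, so these shares are on an unlike basis. A CArG box was in the first listed window of 1.27% of the tested genes. It was in 1.71% of those called higher (4 genes) and 0.667% of those called lower (1 gene). A match is a description of these letters and not a bound site.

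Genes of the Treg program were called more often higher than lower with the TNFR2 agonist. In the core Treg list 8 of 27 were higher and 2 lower (37%, median log2 fold change 0.09). In the effector Treg list 7 of 29 were higher and 1 lower (27.6%, median 0.119). Over all genes tested 2.26% were higher and 1.44% lower. With GC and length offsets the core list gave 6 higher and 2 lower, and the effector list 8 higher and 3 lower. Core genes that were not called included Foxp3 (-0.01), Il2ra (0.02), Ctla4 (-0.09) and Ikzf2 (0.09). Izumo1r, the gene of folate receptor 4, read 182, 182 and 177 CPM with the TNFR2 agonist, 146, 150.0 and 149 CPM with the 4-1BB agonist and 254, 244 and 256 CPM without agonist (0.28 ± 0.03, adjusted p = 2.85e-07). Tigit, an inhibitory receptor gene, followed the same order at 34.7, 34.4 and 34.2 CPM with the TNFR2 agonist, 28.4, 27.96 and 28.9 CPM with the 4-1BB agonist and 55.8, 54.4 and 55.7 CPM without agonist (0.28 ± 0.06, adjusted p = 0.00115). In both genes each agonist group lay below control and the 4-1BB agonist group lay furthest from it. Gata3, a transcription factor of effector Tregs and type 2 helper cells, read 119, 123 and 126 CPM with the TNFR2 agonist, 98.7, 102 and 101 CPM with the 4-1BB agonist and 93.7, 94.6 and 93.6 CPM in controls, so that here the TNFR2 agonist group was the one apart (0.29 ± 0.04, adjusted p = 1.64e-06). Myb, which effector Tregs need, was nearly identical between TNFR2 agonist (154, 154 and 154 CPM) and control libraries (156, 158 and 150.2 CPM). It stood at 121, 124 and 122 CPM with the 4-1BB agonist (0.33 ± 0.04, adjusted p = 4.05e-08). The chemokine receptor gene Ccr8 (0.24 ± 0.04), the PD-1 gene Pdcd1 (0.28 ± 0.04), the integrin gene Itgae (CD103, 0.37 ± 0.06), the transcription factor gene Maf (0.35 ± 0.07) and the latent TGF-beta docking receptor gene Lrrc32 (0.19 ± 0.04) were higher as well. Maf lost its call without TNFR2 agonist replicate 2 (adjusted p = 0.0507) and Lrrc32 without 4-1BB agonist replicate 1. The 8 higher calls of the core list became 4 without TNFR2 agonist replicate 2 or 4-1BB agonist replicate 1, and 5 without 4-1BB agonist replicate 2 or 3. The other core calls higher were Tnfrsf4, Tnfrsf18, Capg and Gpr83, and Penk and Swap70 were lower. Ebi3 was the lower effector gene. In a list of 19 inhibitory receptors and ligands 3 were higher (Pdcd1, Tigit and Lgals9) and 1 was lower (21.1%). The lower one was Btla (-0.27, adjusted p = 0.000804). In the list of conventional helper T cell genes 0 of 8 were called, with a summed level of 55.7 to 59.3 CPM with the TNFR2 agonist and 62.7 to 66.9 CPM with the 4-1BB agonist.

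**Figure D3:**
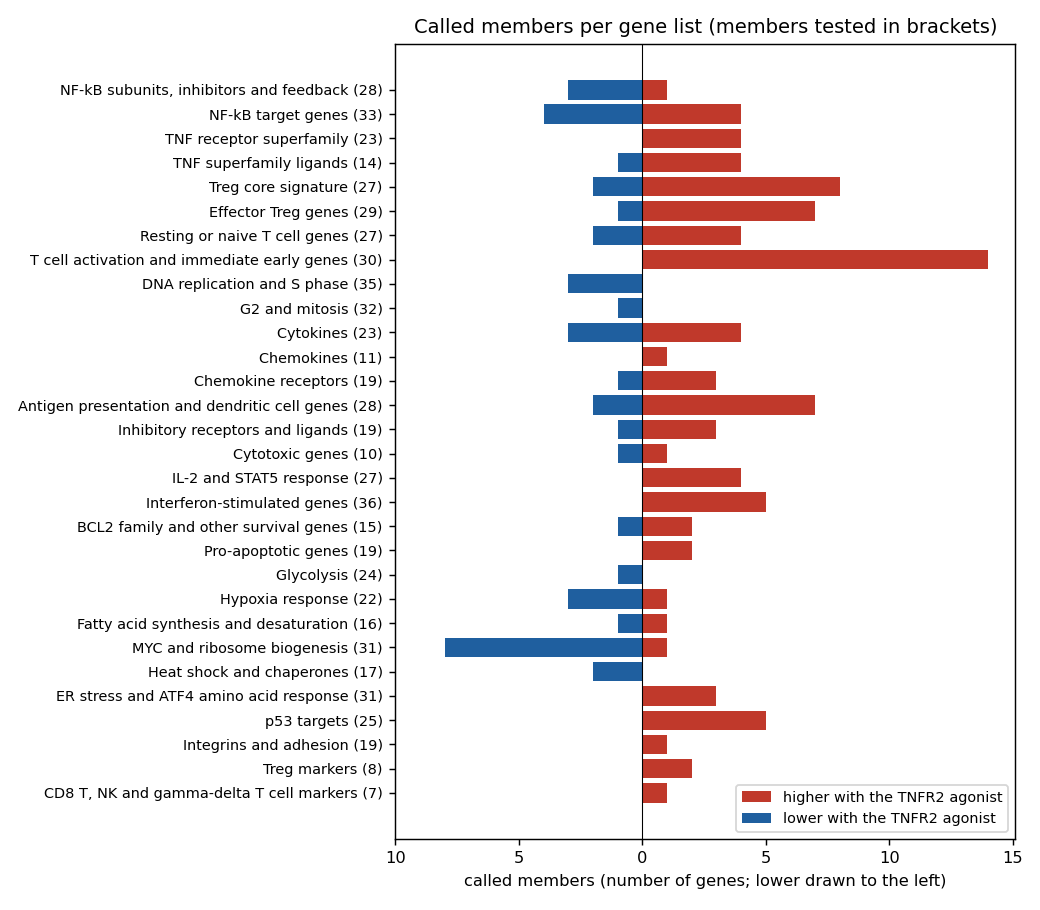
Number of genes called higher (bars to the right) or lower (bars to the left) with the TNFR2 agonist than with the 4-1BB agonist at 36 h, for each gene list with at least 1 call; brackets give the members tested. The 14 higher calls among activation and immediate early genes and the 8 lower calls among MYC and ribosome biogenesis genes are the longest bars on their sides.

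In the list of IL-2 and STAT5 response genes the largest called difference was that of Socs1 (chr16:10782240-10785536), the feedback inhibitor of JAK kinases. Socs1 read 167, 181 and 165 CPM with the TNFR2 agonist, 117, 134 and 125 CPM with the 4-1BB agonist and 142, 123 and 139 CPM in controls. The TNFR2 agonist libraries were all above the others, while the 4-1BB agonist and control libraries overlapped (0.44 ± 0.07, adjusted p = 0.000203). Of 27 IL-2 and STAT5 response genes 4 were called, all higher (14.8%, against 3.7% over all genes tested): Socs1, the kinase gene Pim1, the cytokine gene Lif and Myc. That count was 1 without 4-1BB agonist replicate 1 and 2 without any 1 of the TNFR2 agonist replicates or without 4-1BB agonist replicate 3. The direction was not one-sided with GC and length offsets, where 2 were called higher and 3 lower. Among 36 interferon-stimulated genes 5 were higher and 0 lower (13.9%), with Gbp2, a guanylate-binding GTPase, at 245, 241 and 246 CPM with the TNFR2 agonist, 201, 202 and 199.9 CPM with the 4-1BB agonist and 252, 244 and 236 CPM in controls (0.28 ± 0.04, adjusted p = 2.03e-05). That count was 1 without TNFR2 agonist replicate 2 and 2 without 4-1BB agonist replicate 1. Antigen presentation genes gave 7 higher and 2 lower of 28 (32.1%, median 0.119). These included H2-DMa, a chaperone that loads peptides on MHC class II, at 28.1, 27.1 and 24.3 CPM with the TNFR2 agonist, 19.2, 20.2 and 18.5 CPM with the 4-1BB agonist and 19.1, 17.6 and 19.9 CPM in controls (0.46 ± 0.07, adjusted p = 2.02e-05), the peptide transporter genes Tap1 (0.17 ± 0.04) and Tap2 (0.17 ± 0.04) and the class II invariant chain gene Cd74 (0.23 ± 0.05). The calls of Cd74, Irf8, Tap1, Tapbp and Zbtb46 are those already counted among the NF-kB targets. Myeloid and dendritic cell markers were near 0, as given above.

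MYC and ribosome biogenesis genes were called lower more often than higher with the TNFR2 agonist. Of 31 MYC and ribosome biogenesis genes, 8 were lower and 1, Myc itself, was higher with the TNFR2 agonist (29%, against 3.7% over all genes tested; median log2 fold change -0.0707). Gnl3, the gene of the nucleolar GTPase nucleostemin, read 218, 217 and 215 CPM with the TNFR2 agonist, 255, 249.95 and 251 CPM with the 4-1BB agonist and 225, 235 and 231 CPM in controls (-0.22 ± 0.04, adjusted p = 0.000177). Utp20, a component of the small-subunit processome, was lower by 0.23, the RNA polymerase I subunit gene Polr1b by 0.15 and the nucleolar helicase gene Ddx21 by 0.13, with Nop56, Wdr12, Polr1a and Heatr1 at 0.11 to 0.14. The 8 lower calls became 2 without TNFR2 agonist replicate 1 or 2 and 3 without 4-1BB agonist replicate 2 or 3. Of 35 DNA replication genes 3 were lower (8.57%), among them the polymerase and primase subunit genes Pole and Prim1, and of 32 G2 and mitosis genes 1 was (Kif23, 3.12%, near the share over all genes tested). Leaving out 1 library other than TNFR2 agonist replicate 3 left 0 calls in either list. Hk2, the hexokinase that starts glycolysis, was the single call among 24 glycolysis genes (4.17%, also near the share over all genes tested), at 239, 234 and 257 CPM with the TNFR2 agonist, 281, 298 and 289 CPM with the 4-1BB agonist and 218, 213 and 205 CPM in controls (-0.25 ± 0.04, adjusted p = 3.85e-05). None of 39 nuclear oxidative phosphorylation genes was called by edgeR's test (12 higher and 1 lower at an unadjusted p below 0.05; 0 called by DESeq2 and 1 by limma voom). None of 29 cholesterol synthesis and uptake genes was called by edgeR's test either (4 higher and 3 lower at an unadjusted p below 0.05; 0 called by DESeq2 and 0 by limma voom). p53 target genes gave 5 higher and 0 lower of 25 (20%), with the cell cycle inhibitor gene Cdkn1a at 207, 219.8 and 208 CPM with the TNFR2 agonist, 179.5, 178 and 173 CPM with the 4-1BB agonist and 142, 129 and 158 CPM in controls (0.26 ± 0.07, adjusted p = 0.0222). That call was lost without TNFR2 agonist replicate 2 and without any 1 of the 4-1BB agonist replicates, and the p53 list held 2 calls without 4-1BB agonist replicate 3 and 3 without any 1 of TNFR2 agonist replicate 2 and 4-1BB agonist replicates 1 and 2.

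The same comparison at 18 h, made on other libraries, called 796 genes (5.56%), 441 (3.08%) higher and 355 (2.48%) lower with the TNFR2 agonist. Of the 530 genes called at 36 h, 467 (88.1%) had the same sign at 18 h. In the same direction at both times 191 were called, which is 36% of the 36 h list and 24% of the 18 h list. The share with the same sign over all genes tested is not given here. The trend on GC content described below ran the same way at both times, and its part in these shares was not tested. Among the lead genes, 11 of the 15 smallest fold changes and 4 of the 15 largest were called in the same direction at 18 h, a difference that was not tested. Csf2 read 1.98, 2.91 and 1.89 CPM with the TNFR2 agonist and 5.92, 6.81 and 6.00 CPM with the 4-1BB agonist at 18 h, a log2 fold change of -1.49 against -0.96 at 36 h. Cacnb3 read 29.1, 28.1 and 30.4 CPM with the TNFR2 agonist and 66.5, 61.1 and 64.5 CPM with the 4-1BB agonist at 18 h (-1.13, against -0.75 at 36 h). Among the higher genes, Wnt10b had 0.67 and Cxcr4 0.37 at 18 h and both were called there. By contrast Klf2 (0.09), Cxcr6 (-0.05), Ccl4 (0.10) and Il10 (0.11) did not pass at 18 h. The difference between the times was not called for any of the 30 lead genes, although with GC and length offsets it was called for 1 of them, Cacnb3 (0.42 on the log2 scale, adjusted p = 0.00911).

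**Figure D4:**
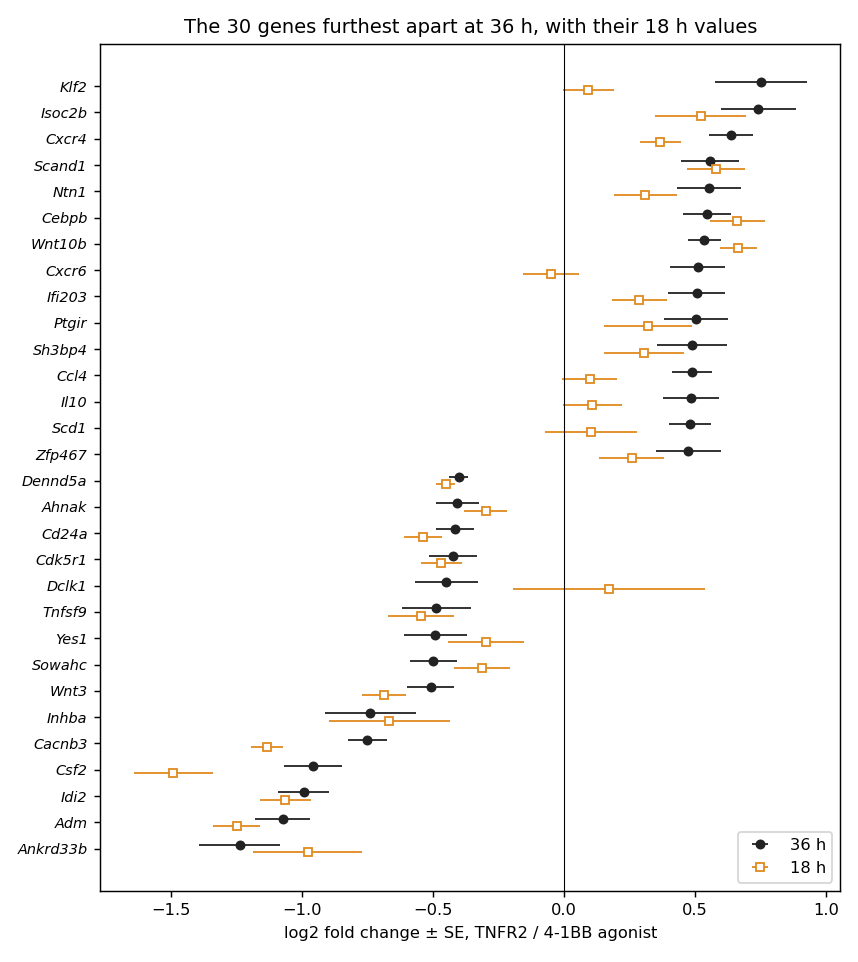
Log2 fold change ± SE of TNFR2 agonist over 4-1BB agonist (x axis) at 36 h (filled circles) and 18 h (open squares) for the 15 largest and 15 smallest called fold changes at 36 h (y axis, genes). The same sign holds at both times for 14 of the 15 in each direction, the exceptions being Cxcr6 and Dclk1.

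A direct test of the difference between the times called 42 genes (0.293%), 32 (0.224%) with a higher and 10 (0.0699%) with a lower log2 fold change at 36 h than at 18 h. That count was 18 without TNFR2 agonist replicate 1 and 25 without 4-1BB agonist replicate 3. Tbx21, the gene of the type 1 transcription factor T-bet, differed at 18 h, with 116, 117 and 109.7 CPM with the TNFR2 agonist and 80.7, 80.3 and 83.9 CPM with the 4-1BB agonist. At 36 h it read 169, 177 and 170.2 CPM with the TNFR2 agonist and 172, 172 and 171 CPM with the 4-1BB agonist, so the groups had met (log2 fold change 0.01 at 36 h and 0.49 at 18 h, adjusted p of the difference = 9.76e-08). Itgae changed direction, being higher with the TNFR2 agonist at 36 h (34.1, 32.7 and 32.3 CPM, against 25.8, 26.9 and 24.0 CPM with the 4-1BB agonist) and lower with it at 18 h (33.2, 32.8 and 32.9 CPM, against 41.9, 37.7 and 41.1 CPM with the 4-1BB agonist). The difference of its log2 fold changes was 0.66 (adjusted p = 8.94e-06). Nr4a1, by comparison, was level between the agonists at 18 h (0.00) and higher with the TNFR2 agonist at 36 h (difference 0.24, adjusted p = 0.0192).

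Base composition and length of the transcripts moved with the comparison. Among genes called higher with the TNFR2 agonist the median transcript had 54.5% GC and 2338.5 bases, among genes called lower it had 46.8% GC and 4662 bases, and over all genes tested 49.2% GC and 3116 bases. With all genes tested split by GC content into 5 equal bins, the median log2 fold change was -0.0447, -0.0233, -0.00219, 0.0257 and 0.058 from the lowest to the highest bin, and at 18 h the end values were -0.0661 and 0.0795. In an alternative chosen after seeing the data, each library's trend on GC content and length entered the model as an offset, which removed most of the trend and called 641 genes, 346 higher and 295 lower. Of the original calls, 208 of 324 higher and 158 of 206 lower were called in the same direction. With those offsets Ankrd33b (-1.23), Adm (-1.10), Csf2 (-0.97), Cacnb3 (-0.85), Tnfaip3 (-0.25), Cxcr4 (0.65), Egr3 (0.38), Myb (0.35) and Tnfrsf9 (0.22) had much the same log2 fold change and were called. Values smaller by over 1.5 times, still called, were found for Cebpb (0.31), Scand1 (0.27, against 0.56 without offsets), Ltb (0.21, against 0.33), Junb (0.15), Dusp2 (0.16, against 0.25) and Ier2 (0.12, against 0.23). Jund (0.17, adjusted p = 0.0935) was no longer called, and the calls of Tnfrsf18 (0.08, adjusted p = 0.0851), Tnfrsf4 (0.07, adjusted p = 0.167), Cd27 (0.14, adjusted p = 0.114), Bcl3 (0.05, adjusted p = 0.669) and Myc (0.09, adjusted p = 0.0851) were lost, as were those of Capg, Pim1, Wdr12, Prim1 and Kif23. Nfkb2 (-0.10, adjusted p = 0.0151) and Lta (-0.10, adjusted p = 0.032) became called as lower with the TNFR2 agonist. The activation and immediate early list then gave 14 higher and 1 lower, the MYC and ribosome biogenesis list 0 higher and 11 lower, and the TNF receptor superfamily 2 higher and 1 lower. DNA replication genes gave 0 higher and 1 lower, G2 and mitosis genes 0, the nuclear oxidative phosphorylation and the cholesterol lists 1 higher each, and conventional helper T cell genes 1 lower. The share of calls in the same direction at both times was then 27.6% of the 36 h list and 28.5% of the 18 h list. With the offsets, 509 of the 641 genes called at 36 h (79.4%) had the same sign at 18 h, against 88.1% without them.

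**Figure D5:**
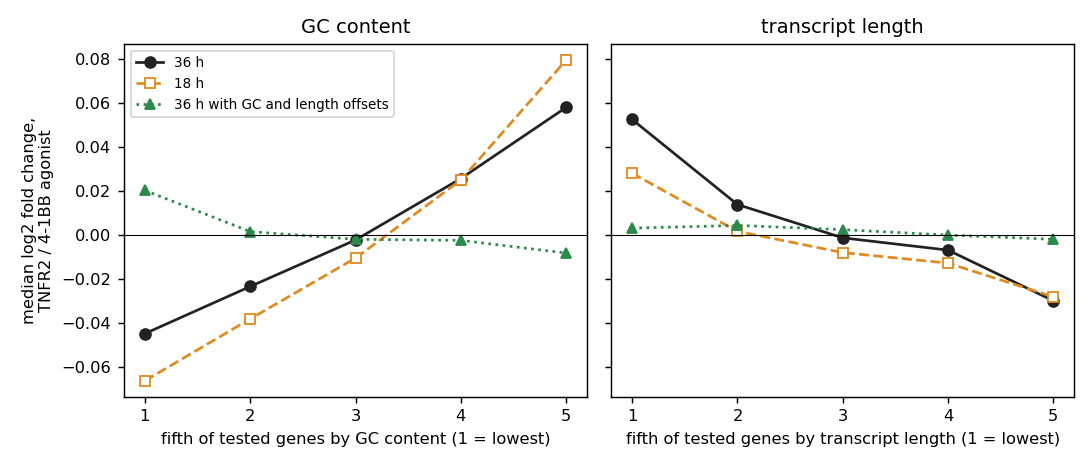
Median log2 fold change of TNFR2 agonist over 4-1BB agonist (y axes) in 5 equal bins of the tested genes by GC content of the transcript (left, x axis from lowest to highest) and by transcript length (right), at 36 h, at 18 h and at 36 h with GC and length offsets. The 36 h medians run from -0.0447 to 0.058 across GC bins and from 0.0525 to -0.0298 across length bins, and lie near 0 with offsets.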

How the data were processed

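RNA of purified Tregs was sequenced as 32 libraries in 11 groups. FastQC, Trimmomatic, STAR 2.5.3a, RSEM 1.2.28 and the build mm10 were used, per the submitters' processing notes. For the annotation release and for strandedness, the setting is not given in the sources used here. Each deposited RSEM table holds expected counts (estimates in which multi-mapping reads are shared out, without scaling). It also holds TPM, which the authors' RSEM run scaled per length and library, used only to compare levels between the 4 receptor genes. Overlapping, antisense or near-identical genes can share reads. Names and positions came from GENCODE M21, by transcript identifier, for 53973 of 54087 genes.

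After rounding to whole numbers, the expected counts went into edgeR 4.0.16 (R 4.3.3). They were filtered by filterByExpr, scaled by TMM and fitted with 1 mean per group over all 32 libraries (biological coefficient of variation 4.02%), with robust quasi-likelihood F tests and Benjamini-Hochberg adjustment over 14313 genes. Standard errors came from the F statistics. Every adjusted p in the text is from this test unless another setting is named. On simulated data of 14142 genes for the 36 h comparison, 43 of 50 genes changed 1.25-fold and all 50 changed 1.5-fold were recovered, with 12 false calls. Alternatives used DESeq2 1.42.0 and limma 3.58.1. GC content and length were those of the longest transcript and had values for 14281 genes.

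Named genes were the 15 largest and 15 smallest called fold changes described in the text, up to 4 members of each gene list by smallest p, the 10 smallest p of the difference between times, and Tnfrsf1b, Tnfrsf9, Tnfrsf4, Tnfrsf25, Tnf, Tnfsf9, Lta, Traf1, Nfkb2 and Foxp3. Predicted genes and genes known by a clone name were left out. Another 28 called list members were named after their values were seen. The members and lists were chosen with earlier results of these data known.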

Additional observations from a re-analysis of the deposited data

Results flagged for a closer look

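The difference between the TNFR2 and 4-1BB agonists was itself called different at 36 h and 18 h in 18 of the 195 named genes. The call was by edgeR's test of the difference of log2 fold changes (36 h minus 18 h). Of the named genes, 10 were chosen by the smallest p of this same test, so their calls were fixed in advance. Over all 14313 genes tested, 42 (0.293%) were called. Higher values at 36 h were those of Tnfsf4 (0.81), Itgae (0.66), Bcl2l11 (0.62), Ctsw (0.47), Fas (0.43), Pdcd4 (0.39), Slamf6 (0.34), Rgs16 (0.31), Tbc1d4 (0.29), Btg1 (0.28), Cd81 (0.28), Nr4a1 (0.24), Bhlhe40 (0.24) and Itgb2 (0.18). Lower values were those of Tbx21 (-0.48), Dnah7a (-0.33), Irgm1 (-0.32) and Gbp2 (-0.28). Fas, the death receptor gene, had 40.2 ± 1.05 CPM with the TNFR2 agonist and 35.5 ± 1.05 CPM with the 4-1BB agonist at 36 h, against 38.5 ± 1.73 CPM with the TNFR2 agonist and 45.7 ± 1.59 CPM with the 4-1BB agonist at 18 h (SD, n = 3 each). Pdcd4, an inhibitor of translation, had 72.4 ± 1.36 CPM with the TNFR2 agonist and 65.3 ± 0.960 CPM with the 4-1BB agonist at 36 h, against 101 ± 4.93 CPM with the TNFR2 agonist and 119 ± 4.04 CPM with the 4-1BB agonist at 18 h. Irgm1, an interferon-induced GTPase, had 197 ± 7.05 CPM with the TNFR2 agonist and 204 ± 4.07 CPM with the 4-1BB agonist at 36 h, against 163 ± 6.17 CPM with the TNFR2 agonist and 135 ± 0.535 CPM with the 4-1BB agonist at 18 h. Dnah7a belongs to a family of near-identical copies that can share reads, and its difference was not called with GC and length offsets (-0.31, adjusted p = 0.129).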

How the results depend on the processing

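The 530 genes called at 36 h became 993 in a fit of the 6 compared libraries alone and 231 to 531 with 1 library left out. The 25 called genes at least 2-fold apart became 50 with no filter on low counts, 2 with a filter of 5 CPM in 3 of the 6 libraries, 54 in the fit of 6 libraries, 15 with the ribosomal-locus transcript as a covariate and 11 to 30 with 1 library left out, and a test against a 1.5-fold change called 1, a gene lower with the TNFR2 agonist. The 42 genes that differed between times became 82 with no filter, 18 to 40 with 1 library left out, and 99 with GC and length offsets, with or without the replicate block. DESeq2 (515), limma voom (553), RLE scaling (503) and thinning the 6 compared libraries to the smallest of their totals (523) gave like counts at 36 h. Of 130 named genes called, 67 kept the call under every alternative; of 2335 such comparisons 2036 kept it, 299 lost it and 0 reversed. The share of calls that were higher was 61.1%, ranging from 54% with offsets to 68.5% without 4-1BB agonist replicate 2. The replicate numbers did not pair the libraries (same-number correlations of deviations -0.0506, -0.0353 and 0.0215), and with the number as a replicate block 515 genes were called at 36 h, 24 of them at least 2-fold apart, and 47 between times. The offsets were chosen after seeing the data. The cause of these changes was not tested. Most of the genes at least 2-fold apart averaged under 5 CPM in their higher group, and thinning gave 28 of them.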

Other observations

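Gene groups outside the costimulation and growth programs showed scattered calls between the TNFR2 agonist and the 4-1BB agonist at 36 h. The calls went in both directions in the cytokine, chemokine receptor and hypoxia lists, and were one-sided in the chaperone, pro-apoptotic and ER stress lists. Of 23 cytokine genes 4 were higher with the TNFR2 agonist and 3 lower (30.4%, against 3.7% over all genes tested). The higher ones were Il10, the TGF-beta gene Tgfb1 (0.25 ± 0.04 on the log2 scale), Lif (0.13 ± 0.03) and the macrophage migration inhibitory factor gene Mif (0.25 ± 0.06), and the lower ones Csf2, Ebi3 and the enkephalin gene Penk (-0.13 ± 0.04). With GC and length offsets the cytokine list gave 3 higher and 4 lower, Mif stood at 0.06 and was not called, and Lif and Penk lost their calls without several single libraries, TNFR2 agonist replicates 1 and 3 and 4-1BB agonist replicates 1 and 3 among them for both. Of 19 chemokine receptor genes Ccr8, Cxcr4 and Cxcr6 were higher with the TNFR2 agonist and Gpr183 (-0.18 ± 0.05) was lower (21.1%), the last being lost with any 1 library left out other than TNFR2 agonist replicate 1, and with the offsets (-0.15, adjusted p = 0.0915).

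The hypoxia response list gave 1 higher and 3 lower of 22 (18.2%, against 3.7% over all genes tested), the higher one being Ddit4, an inhibitor of the kinase complex mTORC1 (0.29 ± 0.05), and the lower ones Adm, the carbonic anhydrase gene Car12 (-0.20 ± 0.05) and Bhlhe40 (-0.15 ± 0.03). Among 17 chaperone genes Hspd1 (-0.13 ± 0.04) and Hsph1 (-0.13 ± 0.03) were lower with the TNFR2 agonist (11.8%), and neither was called without TNFR2 agonist replicate 1 or 2. Of 19 pro-apoptotic genes the BH3-only genes Bbc3 (0.34 ± 0.09) and Bcl2l11 (0.37 ± 0.11) were higher (10.5%), and 0 were called without TNFR2 agonist replicate 2 or without 4-1BB agonist replicate 1 or 2. With GC and length offsets Bbc3 was not called (0.15, adjusted p = 0.396) and the list gave 3 higher. Of 31 genes of ER stress and the amino acid response Ddit3 (0.53 ± 0.13), Phgdh (0.14 ± 0.04) and Xbp1 (0.15 ± 0.04) were higher (9.68%), with 0 calls left without TNFR2 agonist replicate 2 or 4-1BB agonist replicate 2. With the offsets 1 call was left, since Phgdh (0.07, adjusted p = 0.165) and Xbp1 (0.12, adjusted p = 0.0535) did not pass.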
